A study of Homo sapiens with 6 samples.

Results

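MGMT, MSH3, MSH6, PMS2 and MPG, 5 genes that act on DNA damaged by alkylating drugs such as temozolomide, were followed across all dishes of the study. They were chosen by symbol, as known determinants of the temozolomide response, and all 5 were matched to an Ensembl identifier among the 57773 genes of the deposited count table. MGMT was close to silent in every dish, and none of the other 4 transcripts passed the test between PD-L1 overexpressing and control cells. MSH6 was 1.11-fold higher in the PD-L1 dishes with no overlap between the groups, but did not pass adjustment over all genes. Groups without overlap, in either direction, were seen for 27.6% of all tested genes.

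The cells were U251, an established human glioblastoma line. One stable line, labelled PD-L1, carried a lentivirus that overexpresses PD-L1 (gene CD274), the ligand of the inhibitory receptor PD-1, and the other, labelled Vector, carried the control vector. There were 3 dishes of each, collected 12 h after they were passaged (medium with 10% serum), and poly-A RNA was sequenced. The same range, passages 5 to 10, is given for every dish. Each group came from a single transduced line and no source says that the dishes were separate transductions, so the p-values measure the spread between dishes only. The labels name no temozolomide treatment, so all values are basal levels.

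Temozolomide adds methyl groups to DNA, and the lesion that kills is methylation at the oxygen of guanine. MGMT removes that methyl group directly and is used up in doing so; methylation of its promoter, which silences it, is a clinical marker of response in glioblastoma. If the lesion persists, it pairs with thymine at replication and is recognised by mismatch repair. MSH6 and MSH3 are alternative partners of the same MutS subunit and bind small mismatches and larger loops respectively, PMS2 is the endonuclease subunit of the MutL complex that cuts the strand, and loss of this pathway is a known route to temozolomide tolerance. MPG is the glycosylase that starts base excision repair of methylated adenine and of guanine methylated at nitrogen.

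The promoters are shown because CpG methylation at the MGMT promoter is its known route of silencing, because MSH6 was the member whose groups did not overlap, and because PMS2 starts next to another gene. Each window runs from 250 bases before to 50 bases after the transcript start, taken from RefSeq (GRCh38.p14) and written 5′ to 3′ on the gene's strand, with every CpG in capitals. The counts were made on hg19, so these positions describe the sequence only. The windows are MGMT at chr10:129466991-129467290 (plus strand), MSH6 at chr2:47782895-47783194 (plus strand, the most upstream of 4 listed) and PMS2 at chr7:6009057-6009356 (minus strand, 1 of 2 listed).
MGMT: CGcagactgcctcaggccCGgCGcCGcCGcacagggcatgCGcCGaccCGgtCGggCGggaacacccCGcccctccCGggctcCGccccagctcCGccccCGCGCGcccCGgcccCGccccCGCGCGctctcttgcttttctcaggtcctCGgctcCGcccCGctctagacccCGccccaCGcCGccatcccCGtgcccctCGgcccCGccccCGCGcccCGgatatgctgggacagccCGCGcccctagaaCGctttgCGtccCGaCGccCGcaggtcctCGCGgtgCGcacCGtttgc
MSH6: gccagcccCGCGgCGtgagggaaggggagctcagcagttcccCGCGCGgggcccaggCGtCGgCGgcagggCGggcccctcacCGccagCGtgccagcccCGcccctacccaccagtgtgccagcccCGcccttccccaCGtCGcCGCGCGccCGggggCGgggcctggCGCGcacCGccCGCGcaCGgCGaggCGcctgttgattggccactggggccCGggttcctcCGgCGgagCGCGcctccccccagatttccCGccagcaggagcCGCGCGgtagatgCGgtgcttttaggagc
PMS2: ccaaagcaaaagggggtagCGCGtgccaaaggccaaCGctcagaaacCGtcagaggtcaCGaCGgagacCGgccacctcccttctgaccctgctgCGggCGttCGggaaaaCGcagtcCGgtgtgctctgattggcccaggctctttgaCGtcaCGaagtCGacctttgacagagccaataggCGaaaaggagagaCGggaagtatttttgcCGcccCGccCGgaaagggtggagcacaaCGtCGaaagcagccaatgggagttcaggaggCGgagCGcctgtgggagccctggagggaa

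The MGMT window held 45 CpG, more than 96.5% of the 35116 windows in the table, whose median was 14. MSH6 had 39 CpG, MSH3 37, MPG 34 and PMS2 24, all above that median. The GC box (GGGCGG, or CCGCCC on the other strand), the sequence bound by SP1, occurred 8 times in the MGMT window, 5 times in MSH6, 4 times in MSH3, 3 times in MPG and 2 times in PMS2, and 45.0% of all windows held at least 1. A CCAAT box (CCAAT or ATTGG, in 34.6% of windows) occurred 3 times in PMS2 and not in the MGMT or MSH3 windows. None of the 5 windows held TATAAA or TTTATA, which 11.5% of windows had. No methylation was measured in these dishes.

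The dishes held 15678989 to 22270509 counts each, and 15818 genes were abundant enough to be tested. CD274 (ENSG00000120217), which checks the labels, had 26827, 22001 and 23046 counts in the PD-L1 dishes and 34, 71 and 41 in the Vector dishes. Its mean was 1300 ± 61.4 CPM (SD, n = 3; CPM scales counts to the library size) against 2.41 ± 0.97 CPM. By edgeR's quasi-likelihood test at a Benjamini-Hochberg false discovery rate (FDR) under 0.05, 245 genes (1.55%) were higher and 1139 (7.2%) lower in the PD-L1 dishes, and the groups did not overlap for 27.6% of tested genes. Of the astrocyte and glioma markers, 7 of 10 tested were lower, with summed levels of 968 to 1052 CPM in PD-L1 dishes and 1180 to 1285 CPM in Vector dishes. GFAP, the defining astrocyte filament, averaged only 1.70 and 3.18 CPM. Neuron markers summed to 16.5 to 19.5 and 17.6 to 18.4 CPM, and oligodendrocyte markers to 14.4 to 15.4 and 16.3 to 17.9 CPM. Endothelial markers summed to 2.96 to 3.80 and 3.13 to 4.09 CPM, and microglia and leukocyte markers to 1.11 to 1.76 and 2.44 to 3.22 CPM. Fibroblast and pericyte markers summed to 311 to 389 and 664 to 1019 CPM. Most of this last sum was COL1A1, at 303 to 376 CPM in PD-L1 and 652 to 990 CPM in Vector dishes. Of these 6 markers, 3 were lower and 0 higher by edgeR. No marker was at 0 in all 6 dishes, but MOG and CD68 each had only 1 read in the 6 dishes together. The part of the markers in the results was not tested.

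MGMT (ENSG00000170430) had 0, 0 and 1 reads in the PD-L1 dishes and 0, 1 and 0 reads in the Vector dishes. That is 2 reads among 116495610 counts, or 0.0172 CPM with an exact Poisson 95% interval of 0.00208 to 0.0620 CPM. The interval reached up to 0.102 CPM in the PD-L1 group and 0.0898 CPM in the Vector group, and 3 counts, the limit for a count of 0, correspond to 0.135 to 0.191 CPM in a single dish. These intervals cover counting error only. The transcript was at or under this limit in both lines, so no fold change is given. Exact permutation of the 6 values (two-sided) gave p = 1, but with 2 reads in all this test could not have shown a difference. Such a level was not rare: 2662 of 19263 protein-coding genes (13.8%) had 0 to 2 reads in all 6 dishes together. The antisense gene AL157832.2, which overlaps MGMT, had 0 reads.

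MSH6 (ENSG00000116062) measured 153, 150.0 and 147 CPM in the PD-L1 dishes and 138, 135 and 134 CPM in the Vector dishes. Every PD-L1 dish was above every Vector dish, and the spread was small, with 150.1 ± 3.10 CPM against 135.5 ± 1.84 CPM (SD, n = 3). The log2 fold change came to 0.15 (SE 0.07, 95% interval 0.0014 to 0.29), with an unadjusted p of 0.0481 and an adjusted p of 0.207 by edgeR's quasi-likelihood test. Exact permutation of the dishes gave a two-sided p of 0.1, the smallest that 3 against 3 dishes allow. A separation of this kind with PD-L1 above was seen for 12.1% of all tested genes. An unadjusted p under 0.05 by edgeR, in either direction, was seen for 23.6%.

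MSH3 (ENSG00000113318), the alternative partner, measured 37.7, 38.8 and 32.8 CPM in the PD-L1 dishes and 31.5, 36.1 and 35.2 CPM in the Vector dishes. The ranges overlapped, since PD-L1 dish 3 lay below 2 of the Vector dishes. The log2 fold change came to 0.09 (SE 0.09, 95% interval -0.11 to 0.29) with an adjusted p of 0.611 by edgeR. The interval allows a level between 0.924-fold and 1.22-fold of that in Vector cells. The MSH6 to MSH3 count ratio, which does not depend on library scaling, was 4.06, 3.87 and 4.49 in the PD-L1 dishes and 4.37, 3.73 and 3.81 in the Vector dishes. The groups overlapped and the exact two-sided permutation p was 0.5 (0.667 adjusted over the 4 ratios computed).

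PMS2 (ENSG00000122512) measured 22.5, 21.2 and 24.5 CPM in the PD-L1 dishes and 22.6, 23.4 and 23.6 CPM in the Vector dishes, so the PD-L1 dishes lay on both sides of the Vector range. The log2 fold change was -0.03 (SE 0.09, 95% interval -0.23 to 0.17) with an adjusted p of 0.888 by edgeR. The PMS2 values are uncertain because the genome holds near-identical copies of parts of the gene, between which reads can be lost or misassigned. The count table lists 10 such copies, of which 8 had reads, and PMS2 itself took 38.1 to 40.7% of the reads of PMS2 and its copies in the 6 dishes. PMS2CL, the most abundant copy, had 1476 reads against 2672 for PMS2 and did not pass the test (log2 fold change -0.24, adjusted p = 0.281 by edgeR).

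MPG (ENSG00000103152) measured 27.3, 25.3 and 35.0 CPM in the PD-L1 dishes and 35.0, 28.9 and 28.3 CPM in the Vector dishes. MPG was the most variable of the tested members, with a coefficient of variation of 17.4% in PD-L1 dishes and 12.1% in Vector dishes, against 2.06% and 1.36% for MSH6. PD-L1 dish 3 and Vector dish 1 were high and the groups overlapped. The log2 fold change was -0.07 (SE 0.12, 95% interval -0.34 to 0.19) with an adjusted p of 0.767 by edgeR. Without PD-L1 dish 3 it was -0.22, with an adjusted p of 0.114.

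**Figure D1:**
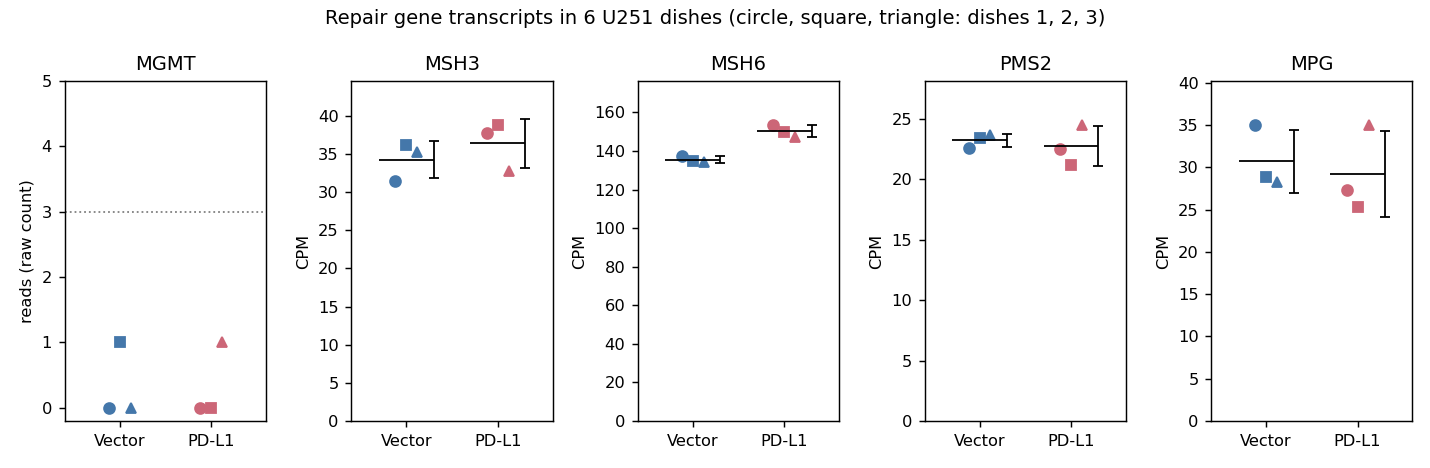
Raw reads of MGMT and CPM of the 4 tested genes in each dish (circles, squares and triangles are dishes 1, 2 and 3; horizontal lines are group means and bars the SD of 3 dishes; the dotted line marks 3 counts). MGMT had at most 1 read in any dish. Of the 4 tested genes, only the MSH6 groups did not overlap (25%, beside 27.6% of all tested genes).

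In all, 0 of the 4 tested members passed an FDR of 0.05 by edgeR, where 8.75% of all genes did; 1 (MSH6) had an unadjusted p under 0.05, and DESeq2 called 0. In simulated counts (15635 genes), with a spread typical of each gene's abundance, the test found 6% of the genes given a 1.2-fold change. It found 68% at a 1.5-fold change and 84% at a 2-fold change. The smallest absolute log2 fold change among called genes was 0.25. The MSH6 estimate was smaller than that. The simulation held no change under 1.2-fold and changed fewer genes than were called in the dishes, so it does not give the power for MSH6.

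Levels can be compared between genes only per length. Per kilobase of the principal transcript, MPG stood highest in Vector dishes at 25.7 ± 3.11 CPM per kb (SD, n = 3), followed by MSH6 at 18.1 ± 0.247, MSH3 at 8.37 ± 0.601, PMS2 at 8.13 ± 0.191 and MGMT at 0.0093. MSH3 and PMS2 did not differ beyond their spread. The PD-L1 dishes had the same order per kilobase of transcript, with 24.5, 20.1, 8.90 and 7.96 CPM per kb for these 4 tested genes. Per kilobase of coding sequence, MPG was at 34.4 and MSH6 at 33.2 CPM per kb in Vector dishes, but in PD-L1 dishes MSH6 (36.8 CPM per kb) was above MPG (32.7 CPM per kb), so the order of this pair there depends on the length used. Among 67 repair genes ranked per kilobase of the principal transcript in Vector dishes, MPG was number 22, MSH6 34, MSH3 53, PMS2 54 and MGMT 67. These ranks also depend on the length used, since MPG and MSH6 lay close per kilobase of coding sequence. The level and rank of PMS2, and its likeness to MSH3, also carry the uncertainty from its copies given above.

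MPG and MSH3 varied across dishes in opposite senses. MPG has a GC-rich transcript (63.1% GC), and MSH3 (42.1%), MSH6 (40.8%) and PMS2 (46.2%) have lower GC. The slope of all genes' deviations on GC content differed between dishes: -0.105, -0.0608 and 0.0450 log2 units per 10 points of GC in the PD-L1 dishes and 0.102, -0.00341 and 0.0224 in the Vector dishes. The dishes with the highest slopes, Vector dish 1 and PD-L1 dish 3, had the lowest MSH3 (91.9% and 95.6% of the Vector mean) and the highest MPG (113.9% and 113.8%). The dishes with the lowest slopes, PD-L1 dishes 1 and 2, had the highest MSH3 (110% and 113%) and the lowest MPG (89.0% and 82.5%). PMS2 did not follow MSH3: it was lowest in PD-L1 dishes 2 and 1 (91.3% and 97.1%) and highest in PD-L1 dish 3 (105%). MSH6 was at 113%, 111% and 109% in PD-L1 dishes 1, 2 and 3, highest where the slope was lowest. In the Vector dishes it was at 98.9 to 102%, highest in dish 1, where the slope was highest. The lowest slopes were those of PD-L1 dishes, so slope and group cannot be fully told apart, and the part of GC content was not tested. With an offset for GC and length in the fit, an alternative added after seeing the data, MPG moved to a log2 fold change of 0.03 and MSH6 was at 0.15 (adjusted p = 0.0940 by edgeR).

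**Figure D2:**
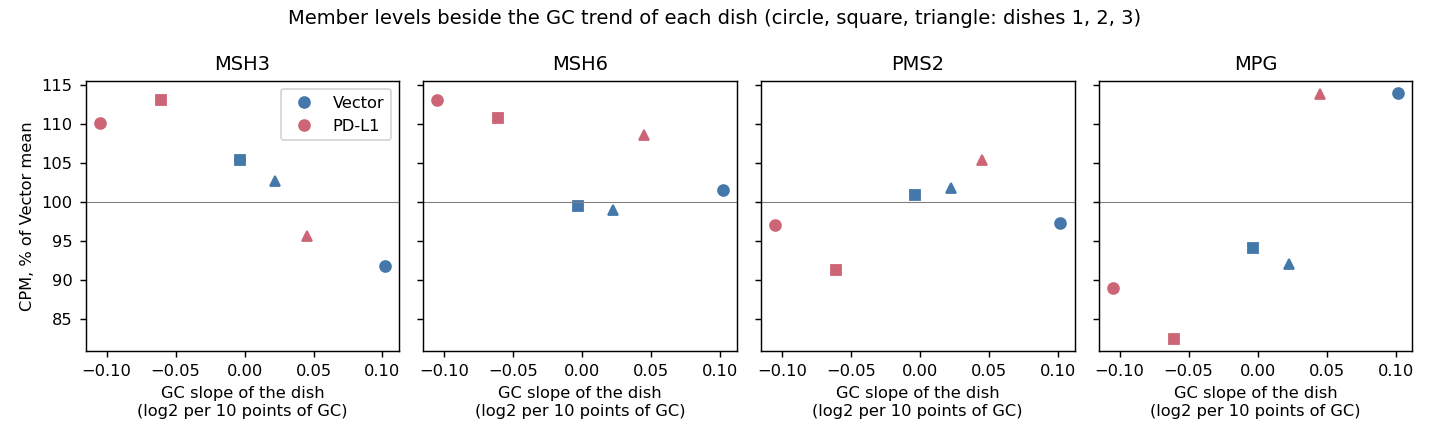
CPM of each tested gene, as a percentage of its mean in the Vector dishes, against the slope of all genes on GC content in the same dish (log2 per 10 points of GC; circles, squares and triangles are dishes 1, 2 and 3). MSH3 tends to fall and MPG to rise from left to right, and the 3 PD-L1 dishes of MSH6 stay above the Vector dishes.

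Of 7 genes that start beside a member, overlap it or lie nearest to it, none passed by edgeR, beside 8.75% of all tested genes. DESeq2 called 0 of the 7. At an unadjusted p under 0.05 by edgeR, 1 was higher and 1 lower, where 23.6% of all tested genes had such a p. The groups did not overlap for 2 of the 7, AIMP2 and EBF3 (28.6%), beside 27.6% of all tested genes.

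AIMP2, a scaffold protein of the tRNA synthetase complex, starts on the strand opposite to PMS2, and their RefSeq windows share 265 of 300 bases, so most of the PMS2 sequence above also lies before AIMP2. It measured 45.9, 39.4 and 48.7 CPM in the PD-L1 dishes and 54.7, 57.4 and 50.4 CPM in the Vector dishes, with no overlap, but did not pass (log2 fold change -0.28, SE 0.09, adjusted p = 0.0815 by edgeR). It passed in 5 of 17 alternatives. The AIMP2 to PMS2 ratio, chosen after the values were seen, was 2.03, 1.86 and 1.99 against 2.42, 2.45 and 2.13, a 0.841-fold difference without overlap (exact permutation p = 0.1, the smallest that the design allows, and 0.2 adjusted over 4 ratios).

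FBXO11 shares 1785 exon bases with MSH6 on the opposite strand, and NPRL3 453 with MPG. The library kit named in the labels does not mark strand, so reads in those stretches cannot be told apart. FBXO11 had a log2 fold change of -0.09 (adjusted p = 0.658 by edgeR) and NPRL3 -0.14 (adjusted p = 0.369). Ratios for both pairs were chosen after the values were seen, and the first shares its MSH6 counts with the comparison of MSH6 above. The FBXO11 to MSH6 ratio was 0.145, 0.138 and 0.119 in PD-L1 dishes and 0.154, 0.149 and 0.172 in Vector dishes (exact permutation p = 0.1, 0.2 adjusted), and NPRL3 to MPG overlapped (exact p = 0.7). The other neighbours did not pass: EBF3 0.36 (adjusted p = 0.103 by edgeR), GLRX3 -0.07 (0.665), EIF2AK1 -0.09 (0.519) and SNRNP25 0.13 (0.389) on the log2 scale.

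**Figure D3:**
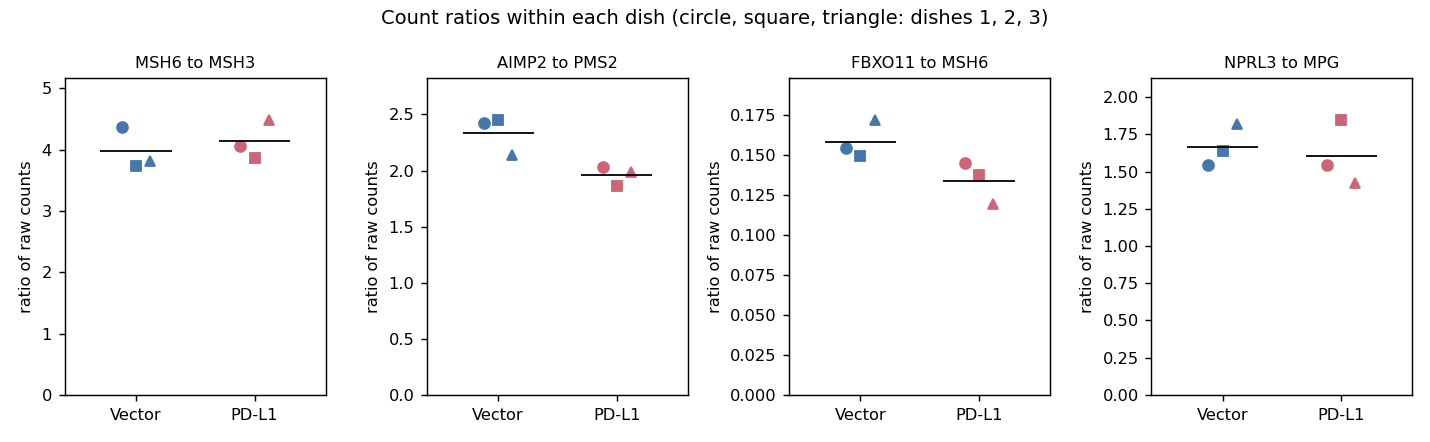
Ratio of raw counts of 2 genes within each dish (circles, squares and triangles are dishes 1, 2 and 3; lines are group means). AIMP2 to PMS2 and FBXO11 to MSH6 are lower in all 3 PD-L1 dishes than in any Vector dish, and the other 2 ratios overlap.

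The further proteins of mismatch repair were taken from a list of 21 genes, of which 20 were tested. None passed by edgeR, where 8.75% of all tested genes did, and DESeq2 called 0. By edgeR 1 was higher and 4 lower at an unadjusted p under 0.05, beside 23.6% of all tested genes in either direction. The median log2 fold change was 0.01, against 0.02 over all tested genes. PCNA, the sliding clamp, had a mean of 403 CPM with PD-L1 and 400 CPM without (log2 fold change 0.01, adjusted p = 0.95 by edgeR), and HMGB1, a chromatin protein, 830 and 833 CPM (-0.01, adjusted p = 0.977). Those named next were chosen after their values were seen. PMS1 and MLH3, alternatives to PMS2 in MutL complexes, had log2 fold changes of 0.15 (adjusted p = 0.390 by edgeR) and -0.40 (adjusted p = 0.144). EXO1, the exonuclease that removes the nicked strand, had 0.14 (adjusted p = 0.278), and MSH5, a meiotic MutS homologue, had 0.98 at 0.414 to 1.90 CPM (adjusted p = 0.12).

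**Figure D4:**
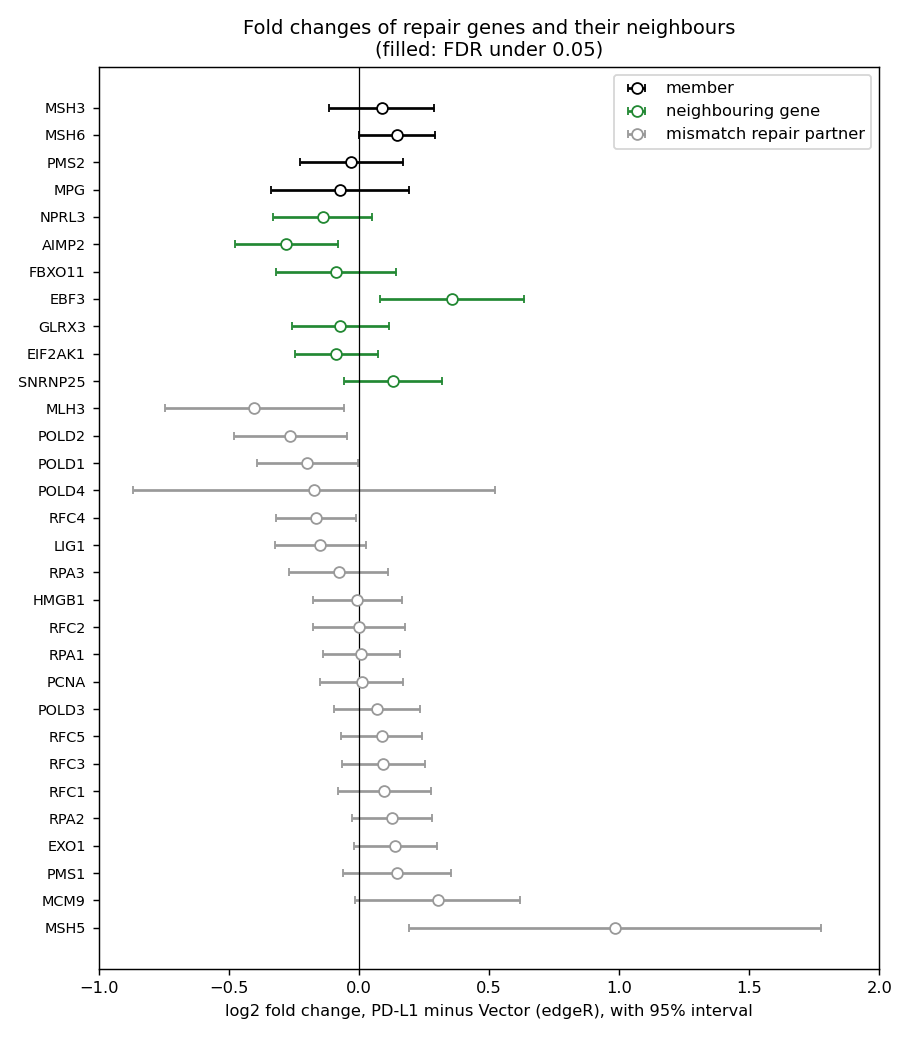
Log2 fold change, PD-L1 minus Vector, with its 95% interval by edgeR for the members (black), their neighbours (green) and mismatch repair partners (grey). No point is filled (FDR under 0.05), and the MSH6 interval lies just above 0.

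Base excision and direct reversal repair, 23 genes, also had none that passed by edgeR, where 8.75% of all tested genes did. DESeq2 called 0, and the median was 0.02. By edgeR 1 gene was higher and 1 lower at an unadjusted p under 0.05, beside 23.6% of all tested genes in either direction. PARP1, which senses strand breaks, measured 1516 CPM against 1419 CPM (log2 fold change 0.10, adjusted p = 0.499 by edgeR). ALKBH2, which reverses other alkyl lesions directly, had 0.13 (adjusted p = 0.389), and APEX1, the endonuclease that acts after MPG, had -0.19 (adjusted p = 0.158); both were chosen after their values were seen.

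Replication stress and fork repair genes, which act once unrepaired lesions meet a fork, numbered 20, and 2 (10%) rose, beside 1.55% of all genes called higher; the list's median was 0.05. XRCC2, a homologous recombination protein, measured 54.1, 54.4 and 42.4 CPM against 35.2, 39.9 and 36.0 CPM (log2 fold change 0.44, SE 0.10, adjusted p = 0.0170 by edgeR). CHEK2, a checkpoint kinase, measured 38.8, 36.2 and 37.2 CPM against 30.5, 28.8 and 31.7 CPM (0.30, SE 0.08, adjusted p = 0.0366 by edgeR). It did not pass with no low-count filter (adjusted p = 0.0612 by edgeR) or with a replicate block (adjusted p = 0.110 by edgeR). The groups did not overlap for either gene, as was seen for 27.6% of all tested genes. Leaving out single dishes ended the XRCC2 call in 4 of 6 cases (adjusted p up to 0.102) and the CHEK2 call in 5 of 6 (up to 0.170).

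Among 15 genes listed for links to the regulation of MGMT, 1 (6.67%) fell by edgeR, beside 7.2% of all genes called lower. DESeq2 called 2 lower, and the median log2 fold change was -0.06. Their action on MGMT was not tested. HIF1A, the oxygen-regulated transcription factor, measured 146, 141 and 136 CPM against 199, 177 and 187 CPM (log2 fold change -0.41, SE 0.07, adjusted p = 0.0038 by edgeR). The most abundant genes of the list did not pass: KPNA2, an importin, measured 535 CPM in PD-L1 against 559 CPM in Vector dishes (-0.06, adjusted p = 0.670 by edgeR), and NDRG1, a stress-response gene, 230.5 against 363 CPM (-0.66, adjusted p = 0.369). The NDRG1 value rested on single dishes: it was -0.90 and passed without Vector dish 2 (adjusted p = 0.0301 by edgeR), and it was -0.43 without Vector dish 1 and -0.97 without PD-L1 dish 3, neither of which passed. Chosen after their values were seen, the DNA methyltransferases DNMT1 and DNMT3B had log2 fold changes of -0.23 (adjusted p = 0.0541 by edgeR) and 0.24 (adjusted p = 0.0880). DNMT1 passed in 4 of 17 alternatives, DESeq2 among them (adjusted p = 0.0129), and DNMT3B in 3, all with the GC and length offset. MGMT was at 0 or 1 read in every dish beside these values.

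The genes whose log2 CPM followed each member most closely over the 6 dishes, among 11206 compared, are given as a description, since 6 dishes share the group difference and the GC trend. They were ATR (Pearson r = 0.993) and VWA8 (0.992) for MSH3, ZNF791 (0.997) and SLC25A30 (0.994) for MSH6, CALCB (0.996) and PEX16 (0.990) for PMS2, and COX8A (0.995) and ARL2 (0.994) for MPG. None of these 8 genes passed the test between the groups by edgeR, where 8.75% of all tested genes did. Their adjusted p-values by edgeR ran from 0.0968 (SLC25A30) to 0.955 (PEX16). Because they were chosen for following members that did not pass, this outcome was largely set by the choice.

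**Figure D5:**
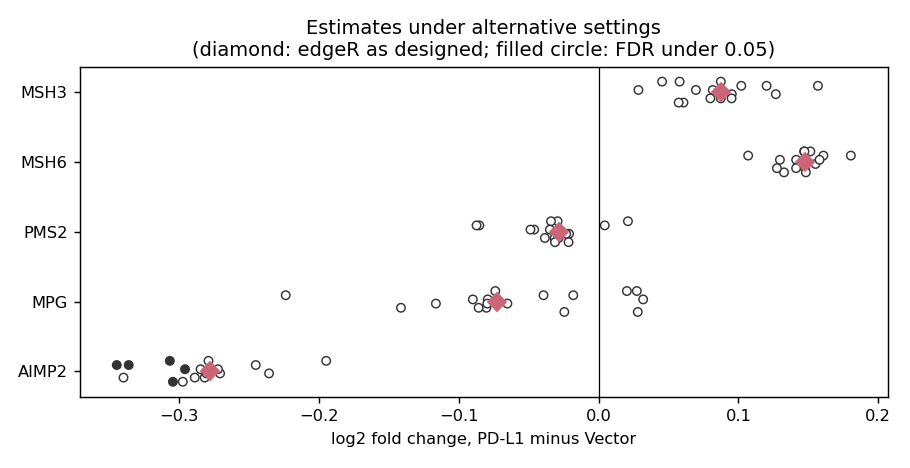
Log2 fold change, PD-L1 minus Vector, of the 4 tested members and AIMP2 by edgeR as designed (diamond) and under 17 alternative settings (circles, filled where the FDR was under 0.05). No member has a filled circle, MSH3 and MSH6 stay above 0, and PMS2 and MPG lie on both sides of 0.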

How the data were processed

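RNA of 6 U251 dishes (3 PD-L1, 3 Vector) was poly-A selected and made into libraries with a kit that does not mark strand, per the labels' protocols. The authors deposited raw read counts per Ensembl gene (57773 genes), made with CASAVA 1.8, STAR 2.5.1b and HTSeq 0.6.0 on hg19 per the submitters' processing notes; neither the annotation nor the strand setting is stated in the sources used. The authors also deposited a normalized signal for 28633 genes, found to be each raw count divided by 1 factor per dish.

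Raw counts were tested with edgeR 4.0.16 (R 4.3.3; filterByExpr, TMM, robust quasi-likelihood test, Benjamini-Hochberg over 15818 genes, FDR under 0.05), and CPM use TMM library sizes. Single values and count ratios were compared by exact permutation. The script was tested on simulated data. DESeq2 1.42.0, limma 3.58.1 (voom, and trend on log2 of the deposited signal plus 1), other scalings and filters, each dish left out, a replicate block and a GC and length offset were alternatives. Symbols came from a name table for 51996 identifiers and from GENCODE 29 for 342, and 5435 had none. GENCODE 29 also gave lengths, gene starts and overlaps. The members and lists were chosen with earlier results of these data known. Named genes were the members, their neighbours, the genes of each list that passed (otherwise its 2 most abundant) and the 2 genes most like each member; others are marked. Some genes of the lists, and results that need them, are not reported here. Gene coordinates on hg19 were not used here.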

Additional observations from a re-analysis of the deposited data

How the results depend on the processing

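No member passed the test in any of the 17 alternatives. MSH3 ranged over log2 fold changes of 0.03 to 0.16 (adjusted p 0.201 to 0.935), MSH6 over 0.11 to 0.18 (0.0765 to 0.553), PMS2 over -0.09 to 0.02 (0.487 to 0.985) and MPG over -0.22 to 0.03 (0.114 to 0.957). PMS2 changed sign with upper-quartile factors (0.0044) and when single dishes were left out (-0.085 to 0.021), and MPG with the GC and length offset (0.028), with that offset and the replicate block (0.027) and when single dishes were left out (-0.22 to 0.032). The MSH6 to MSH3 log2 ratio differed by 0.0018 to 0.13 with single dishes left out. The cause was not tested.

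Genes higher and lower over the whole table (245 and 1139) became 379 higher with upper-quartile factors, 885 higher with the GC and length offset, 1621 and 1906 with that offset and without PD-L1 dish 3, 22 and 508 at an FDR under 0.01, and 35 to 1271 and 510 to 2241 with single dishes left out; the highest of these are without PD-L1 dish 3. Distinct list genes (2 higher, 1 lower) became 7 and 4 with the offset, 14 and 6 with it and without PD-L1 dish 3, 0 and 1 at an FDR under 0.01, 1 and 3 with no filter, 2 lower with DESeq2, voom and limma-trend, and 0 to 6 and 1 to 8 with single dishes left out. The median of the lists moved from 0.023 to 0.056 with upper-quartile factors. Of 430 other values of named genes, 379 kept direction and call, 13 lost the call, 24 gained it and 14 changed sign, none of these called: HMGB1 (0.027 with upper-quartile factors, 0.0021 at a mean of at least 5 CPM, -0.048 to 0.041 with single dishes left out), PCNA (-0.0064 with no filter, -0.044 with the offset, -0.050 with it and without PD-L1 dish 3, -0.016 to 0.049 with single dishes left out) and NPRL3 (0.0042 with the offset and without PD-L1 dish 3).

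The labels do not say whether a number pairs dishes, and the numbers were not treated as pairs. Dishes with the same number did not deviate together (correlations -0.212, -0.0512 and -0.192). So few values, taken around means of 3 dishes, cannot settle whether such dishes shared a day or batch. With a replicate block MSH6 was 0.15 (adjusted p = 0.517 by edgeR), MSH3 0.09, PMS2 -0.03 and MPG -0.08, 238 genes were higher and 1209 lower, and 1 list gene was higher, since CHEK2 no longer passed (0.30, adjusted p = 0.110); with the block and the offset 369 genes and 4 list genes were higher, 2 list genes were lower and PCNA was -0.044. Depth limits MGMT, whose 2 reads allow no comparison, and 3 dishes a group limit what can be resolved for the others.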
